A study of Mus musculus with 8 samples.

Results

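The transcripts described here encode 10 transcription factors that build and maintain the endocrine cells of the pancreatic islet, Pdx1, Nkx6-1, Nkx2-2, Neurod1, Pax6, Isl1, Foxa2, Rfx6, Insm1 and Mlxipl. They were chosen by name as factors of the islet lineage, with earlier results of these data known. All 10 were present among the 23366 genes of the deposited table. They were measured by RNA-seq in beta cells sorted from NOD mice, a strain prone to autoimmune diabetes, aged 8 to 10 weeks. The sorted populations are labelled bottom and top, with 4 libraries of about 1000 cells in each. Batch 1 holds bottom 1, bottom 2, top 1 and top 2, and batch 2 holds the rest. No genetic change or treatment is given for any library, and neither the property that set the sort gates nor the number of animals per library is stated, so p-values measure the spread between libraries, which may be technical.

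In the adult islet these factors act as a network. Homeodomain proteins such as Pdx1, Nkx6-1, Nkx2-2, Pax6 and Isl1 read short AT-rich motifs, while Neurod1, a basic helix-loop-helix protein, reads E boxes, and they bind together at hormone genes and at one another's genes. Pax6, Isl1, Neurod1, Insm1 and Rfx6 are made in most endocrine cells of the islet, whereas Nkx6-1 is largely kept to beta cells, and Pdx1 to beta and delta cells.

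The sorted cells were checked against hormone transcripts. Transcripts of the insulin genes Ins1 and Ins2 took 5.34% ± 1.99 of all counts in bottom and 33.5% ± 5.92 in top (SD, n = 4 each). Somatostatin (Sst), the delta cell hormone, took 4.59% ± 0.654 in bottom and 0.282% ± 0.106 in top, and Ppy, which encodes pancreatic polypeptide, took 4.28% ± 3.11 in bottom and 0.105% ± 0.0585 in top. Glucagon (Gcg), the alpha cell hormone, took 6.66% ± 4.31 in bottom and 7.89% ± 2.88 in top. All libraries thus held transcripts of several islet hormones beside insulin, although the label names beta cells alone. In such bulk libraries fewer cells of a type and less RNA per cell cannot be told apart. Total expected counts, the reads per gene estimated by RSEM, ran from 7256042 to 11262368 in bottom and from 6657639 to 9366913 in top.

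None of the 10 factors passed the test between bottom and top. In the edgeR quasi-likelihood test over 11721 genes, 52 genes were called at an adjusted p under 0.05, which is 0.444% of those tested (0.282% higher and 0.162% lower in bottom), and 0 of the 10 factors were among them. DESeq2, which called 5.01% of all genes, and limma-voom, which called 0.486%, also called 0 of the 10. At an unadjusted p under 0.05 the edgeR test gave 3 of 10, Nkx2-2, Isl1 and Foxa2, against 10.3% of all tested genes. The same 3 were those whose bottom and top libraries did not overlap, against 7.22% of all tested genes. Isl1 lay wholly above top, as 3.31% of all genes did, and Nkx2-2 and Foxa2 wholly below, as 3.91% did. The log2 fold change of bottom over top was below 0 for 8 of the 10, against 49.9% of all tested genes, and its median was -0.52 over the 10 and 0.00 over all tested genes. All 10 passed the filter on low counts.

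**Figure D1:**
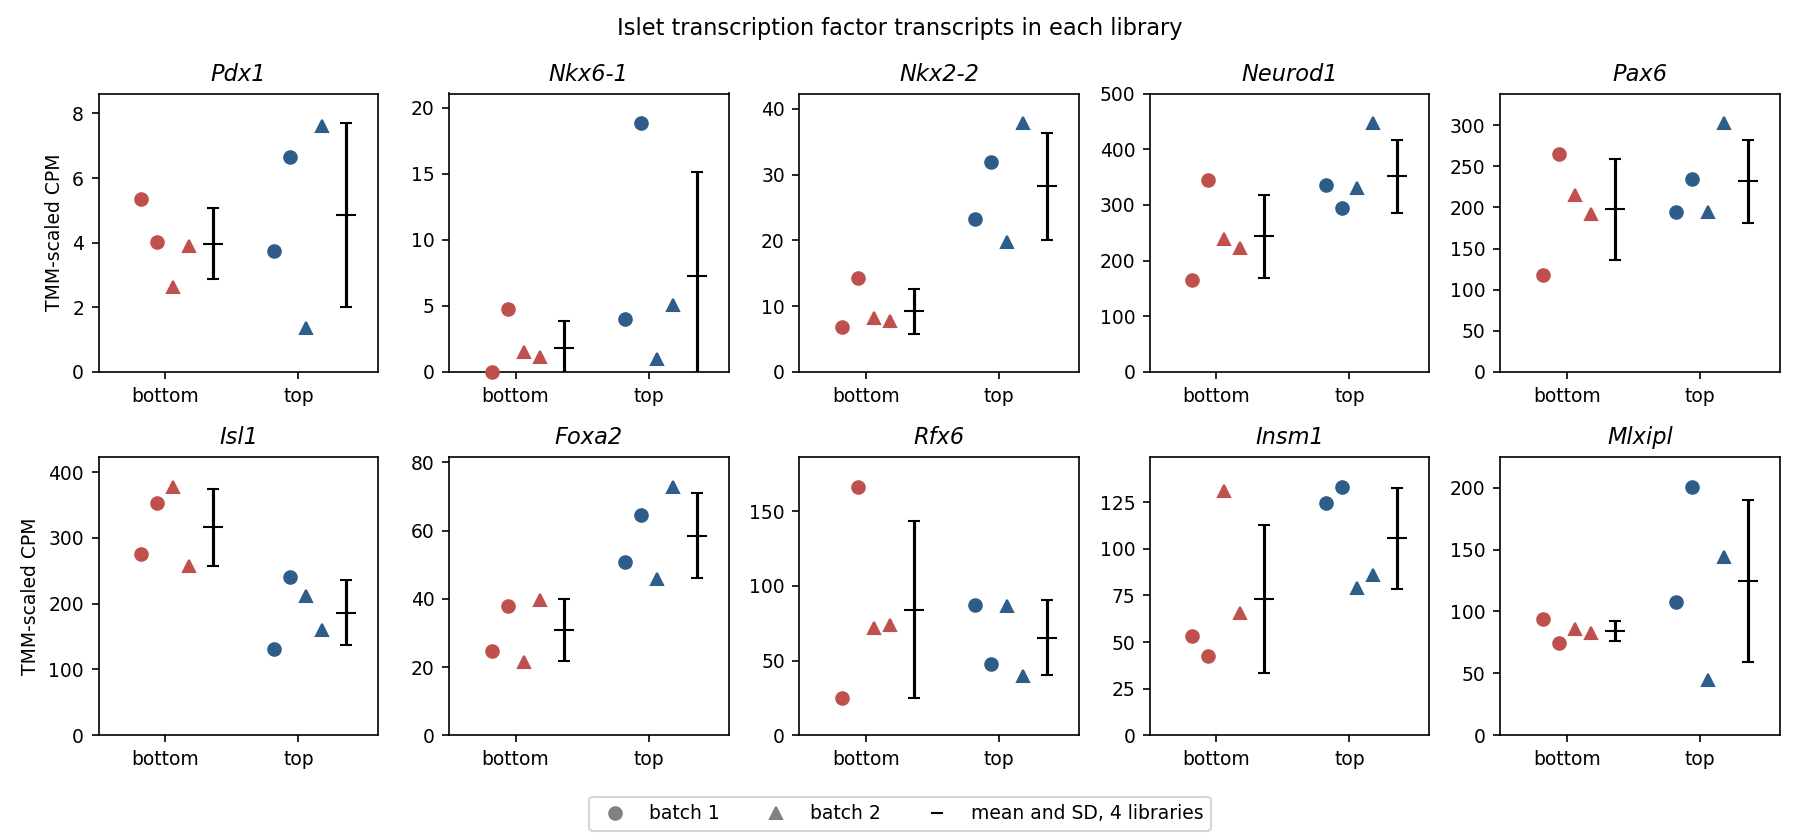
TMM-scaled CPM (counts relative to library size) of each factor in each library, with 1 panel and 1 vertical scale per gene, the bottom libraries left of the top libraries, circles for batch 1 and triangles for batch 2. Bars give the mean and SD of 4 libraries and are cut off at 0. The 4 bottom libraries lie apart from the 4 top libraries for Nkx2-2, Isl1 and Foxa2, and overlap them for the others.

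Isl1, a LIM-homeodomain factor of all islet endocrine lineages, stood higher in each bottom library than in any top library. Scaled to library size as CPM, it had 275, 353, 378 and 258 in bottom 1 to bottom 4, against 132, 241, 212 and 160 CPM in top 1 to top 4. The means were 316 ± 58.5 CPM in bottom and 186 ± 49.6 CPM in top (SD, n = 4 each). The log2 fold change was 0.76 (SE 0.28), a ratio of 1.70 with a 95% interval of 1.10 to 2.62, and the edgeR adjusted p was 0.361. Batch 1 averaged 314 CPM in bottom and 186 CPM in top, and batch 2 averaged 318 CPM in bottom and 186 CPM in top. It was the factor with the highest positive log2 fold change of the 10.

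Nkx2-2, a homeodomain factor that beta cells need and that represses genes of other islet fates, stood lower in each bottom library than in any top library. It had 6.77, 14.3, 8.22 and 7.69 CPM in bottom 1 to bottom 4, against 23.3, 31.9, 19.8 and 37.8 CPM in top 1 to top 4. These levels rest on 62.0 to 153 expected counts per library in bottom and 160 to 254 in top. Bottom over top, this was a log2 fold change of -1.62 (SE 0.57), or a ratio of 0.325 with a 95% interval of 0.135 to 0.787, and the adjusted p was 0.337 in edgeR and 0.0592 in DESeq2. The difference was of like size in the batches, with 10.5 CPM in bottom and 27.6 CPM in top in batch 1, and 7.95 CPM in bottom and 28.8 CPM in top in batch 2. Antisense genes overlap Nkx2-2 in the GENCODE annotation, and since the kit is not stated to keep strand, their reads cannot be told from its own.

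Foxa2, a forkhead factor that opens chromatin in endoderm and in its derivatives, was the other factor whose libraries did not overlap. It had 24.7, 37.8, 21.4 and 39.7 CPM in bottom 1 to bottom 4, against 50.9, 64.5, 45.9 and 72.9 CPM in top 1 to top 4. The highest bottom library lay just under the lowest top library. Its log2 fold change was -0.92 (SE 0.39), a ratio of 0.528 with a 95% interval of 0.289 to 0.962, and the edgeR adjusted p was 0.441.

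**Figure D2:**
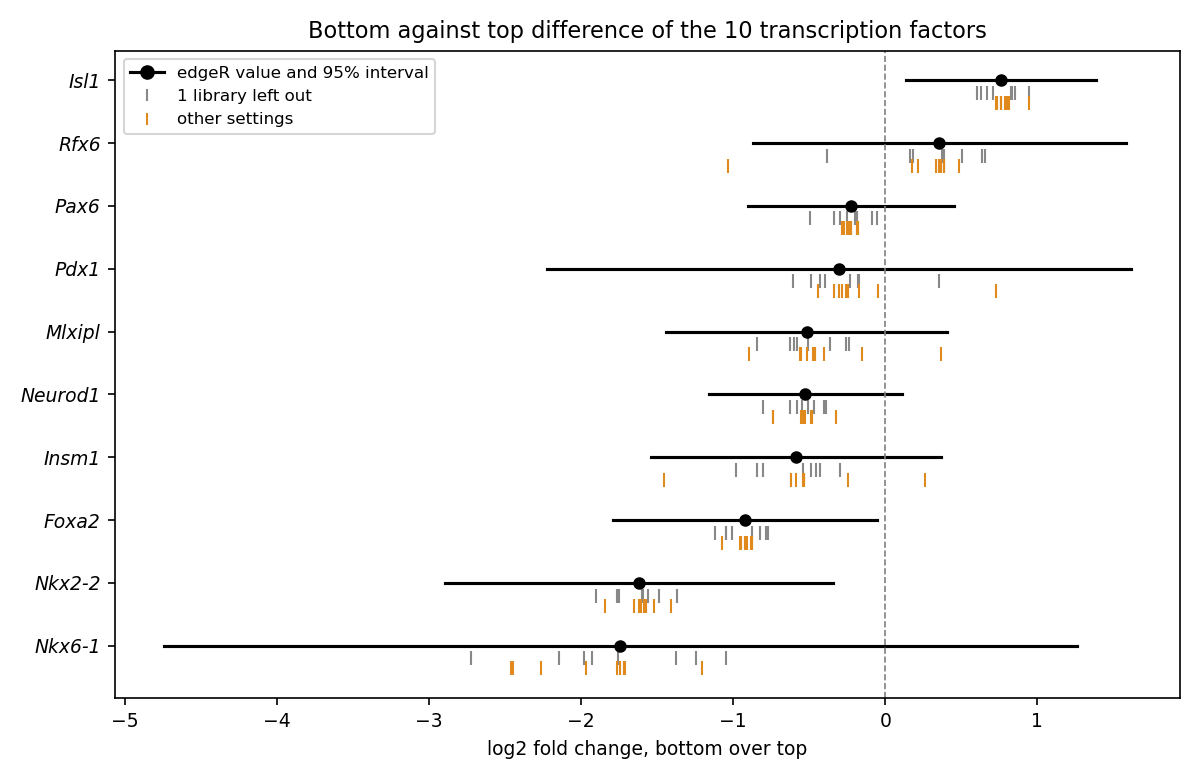
Log2 fold change of bottom over top for each factor, with the edgeR value and its 95% interval in black, the 8 values with 1 library left out in grey and the other settings in orange. Isl1, at 0.76, and Nkx2-2, at -1.62, keep their sides of 0 in every setting drawn, as do Nkx6-1, Neurod1, Pax6 and Foxa2. Pdx1, Rfx6, Insm1 and Mlxipl have settings on either side.

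Neurod1, the factor that binds E boxes of the insulin genes with its E protein partners, was among the most abundant of the 10. It had 166, 346, 239 and 223 CPM in bottom 1 to bottom 4, against 335, 295, 330 and 447 CPM in top 1 to top 4. Bottom 2 lay among the top libraries, and the other bottom libraries lay under all of them. Its log2 fold change was -0.53 (SE 0.28), with a 95% interval of 0.447 to 1.08 for the ratio and an edgeR adjusted p of 0.601. Without bottom 2 it was -0.80 (edgeR adjusted p = 0.284, and 0.284 to 0.811 over the 8 omissions).

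Pax6, a paired-domain factor needed for islet hormone transcription, had 119, 265, 215 and 192 CPM in bottom 1 to bottom 4, against 195, 235, 195 and 302 CPM in top 1 to top 4. The groups overlapped widely. Its log2 fold change was -0.22 (SE 0.30, edgeR adjusted p = 0.887), with a 95% interval of 0.536 to 1.37 for the ratio. Without bottom 1, the lowest library, it was -0.05. The overlapping antisense gene Pax6os1 held 566 counts in bottom and 397 in top, beside 8040 in bottom and 6704 in top for Pax6.

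Rfx6 is a winged-helix factor that directs islet cell formation in mice. Among the factors with over 200 counts in each library, it varied most between bottom libraries relative to its mean (coefficient of variation 70.4%). It had 25.0, 166, 71.5 and 73.7 CPM in bottom 1 to bottom 4, against 87.2, 47.6, 86.6 and 39.7 CPM in top 1 to top 4. Bottom 1 was the lowest and bottom 2 the highest of all 8 libraries. For Rfx6 the log2 fold change was 0.35 (SE 0.55, edgeR adjusted p = 0.898), and it turned to -0.38 without bottom 2, when the bottom mean was 56.7 CPM in place of 84.1 CPM. Alpha cell markers summed to 52099, 143407, 29931 and 44580 CPM in bottom 1 to bottom 4, with the highest value also in bottom 2, and to 75507, 66837, 139937 and 93580 CPM in top 1 to top 4. Bottom 2 was likewise the highest bottom library for insulin (69533 CPM) and for delta (58001 CPM), PP and epsilon (91995 CPM) and acinar markers (1308 CPM). Intestinal and duct markers were highest in other bottom libraries. The part of any of these markers in the Rfx6 values was not tested.

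Insm1, a zinc-finger repressor that drives endocrine differentiation, had 53.4, 42.4, 131 and 65.7 CPM in bottom 1 to bottom 4, against 124, 133, 79.1 and 86.1 CPM in top 1 to top 4. In batch 1 both bottom libraries lay below both top libraries, at means of 47.9 CPM in bottom and 129 CPM in top. In batch 2 the groups overlapped, at 98.3 CPM in bottom and 82.6 CPM in top, and bottom 3 was the highest of that batch. For Insm1 the log2 fold change was -0.59 (SE 0.43, edgeR adjusted p = 0.724), -1.45 in batch 1 alone and 0.26 in batch 2 alone. The test of the difference between batches gave an interaction of 1.68 on the log2 scale (SE 0.64, unadjusted p = 0.0285, edgeR adjusted p = 0.604). No factor of the 10 passed that interaction test, which called 0 of 11721 genes in edgeR, with 885 genes at an unadjusted p under 0.05. Without the filter on low counts it called 71 genes, and 0 of the 10.

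Mlxipl encodes ChREBP, which with its partner Mlx turns glucose supply into transcription of glycolytic and lipid genes. It had 93.8, 74.9, 85.6 and 82.8 CPM in bottom 1 to bottom 4, against 107, 201, 45.0 and 144 CPM in top 1 to top 4. The bottom libraries lay close together, with a coefficient of variation of 9.29%, and inside the range of the top libraries, whose coefficient was 52.6%. For Mlxipl the log2 fold change was -0.52 (SE 0.41, edgeR adjusted p = 0.768), and -0.84 without top 3 (edgeR adjusted p = 0.351, and 0.351 to 0.972 over the 8 omissions).

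Pdx1 and Nkx6-1, the homeodomain factors most closely tied to beta cells, were read at very low depth. Pdx1, which forms the pancreas and drives insulin transcription, had 48.9, 43, 25 and 42 expected counts in bottom 1 to bottom 4, against 26, 53.0, 11 and 48 in top 1 to top 4. This gave 5.35, 4.02, 2.63 and 3.89 CPM in bottom, against 3.74, 6.65, 1.36 and 7.62 CPM in top. The groups overlapped, and the lowest and the highest libraries were both top. The Pdx1 log2 fold change was -0.30 (SE 0.86, edgeR adjusted p = 0.950), with a wide 95% interval of 0.214 to 3.07 for the ratio. Without top 4 the log2 fold change was 0.35. The overlapping antisense gene Plut was not used here.

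Nkx6-1, which keeps beta cells from taking other islet fates, had 0, 51, 14 and 12 expected counts in bottom 1 to bottom 4, against 28, 150, 8 and 32 in top 1 to top 4. Its levels were 0, 4.77, 1.47 and 1.11 CPM in bottom, against 4.03, 18.8, 0.989 and 5.08 CPM in top. The count of 0 in bottom 1 allows up to 0.321 CPM of its total, from 3 counts, a limit that covers counting error only. Bottom 2 and top 2 stood highest within their populations, and the groups overlapped. The Nkx6-1 log2 fold change was -1.74 (SE 1.34, edgeR adjusted p = 0.755), with a 95% interval of 0.0373 to 2.40 for the ratio. The bottom mean was 1.84 CPM, or 0.862 CPM without bottom 2, and the top mean was 7.23 CPM, or 3.37 CPM without top 2.

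The spread between libraries is given beside the counting error that the expected counts alone would give. The reads come from amplified cDNA and are not independent molecules, so that error is a lower limit. For Nkx6-1 the coefficient of variation was 112% in bottom and 110% in top, where counting alone gives 22.8% in bottom and 13.5% in top. For Pdx1 it was 28.0% in bottom and 58.8% in top, where counting gives 15.9% in bottom and 17.0% in top. For Neurod1 it was 30.8% in bottom and 18.7% in top, where counting gives 2.01% in bottom and 1.98% in top.

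Levels were compared between the factors per kilobase of their longest GENCODE coding transcript. In bottom, Isl1 was highest at 126 ± 23.2 CPM per kb and Neurod1 next at 89.2 ± 27.5, while in top Neurod1 was highest at 129 ± 24.1 and Isl1 next at 74.0 ± 19.7 (SD, n = 4 each). Isl1 lay above Neurod1 in 4 of 4 bottom libraries and in 0 of 4 top libraries. Pax6 followed, at 44.7 ± 13.8 CPM per kb in bottom and 52.3 ± 11.5 in top, and was the third of the 10 in 6 of 8 libraries. Rfx6, Insm1 and Mlxipl stood at 24.3, 23.6 and 23.3 CPM per kb in bottom and 18.8, 34.1 and 34.3 in top. In bottom their libraries overlapped. In top every Insm1 value, from 25.5 to 43.0, lay above every Rfx6 value, from 11.5 to 25.2. Mlxipl, from 12.4 to 55.4 in top, overlapped both. Foxa2 stood at 14.5 ± 4.32 CPM per kb in bottom and 27.5 ± 5.82 in top, and Nkx2-2 at 4.36 ± 1.61 in bottom and 13.3 ± 3.86 in top. Pdx1, at 1.84 ± 0.515 CPM per kb in bottom and 2.25 ± 1.32 in top, and Nkx6-1, at 0.586 ± 0.654 in bottom and 2.30 ± 2.53 in top, were the lowest in 8 of 8 libraries and did not differ from each other beyond their spread.

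The transcripts differed in base composition. The GC content was 55.7% for Pdx1, 59.0% for Nkx6-1 and 55.7% for Nkx2-2, and it was 43.6% for Neurod1, 45.7% for Isl1 and 44.8% for Rfx6. Mafa, a beta cell factor outside the 10, had 65.0% and 0 counts in all 8 libraries. Insm1, at 62.0%, was read at 73.1 CPM in bottom and 106 CPM in top, Mlxipl, at 56.6%, at 84.3 CPM in bottom and 124 CPM in top, and Foxa2, at 57.0%, at 30.9 CPM in bottom and 58.6 CPM in top. These 3 exceeded Pdx1 and Nkx2-2 both in GC content and in level. Nkx6-1, at 1.84 CPM in bottom and 7.23 CPM in top, went the other way beside Foxa2 and Mlxipl, with a higher GC content and a lower level. Pax6, at 49.3%, lay between the groups in GC content. The part of base composition in the levels was not tested.

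Ratios of expected counts within a library do not depend on how libraries are scaled to each other. Of the 45 pairs of factors, 10 had ratios that did not overlap between bottom and top. Among tested genes with counts in every library, 6.80% of all pairs had such ratios, against 10 of the 36 pairs of the 9 factors other than Nkx6-1. These pairs share genes and are not independent, with Isl1 in 5 and Nkx2-2 in 5 of the 10. The pair of Pax6 and Foxa2 held neither. The count ratio of Nkx2-2 to Isl1 was 0.0246, 0.0406, 0.0216 and 0.0299 in bottom 1 to bottom 4, against 0.177, 0.132, 0.0932 and 0.236 in top 1 to top 4. That of Neurod1 to Isl1 was 0.604, 0.978, 0.632 and 0.865 in bottom, against 2.55, 1.22, 1.55 and 2.79 in top. Every bottom library thus held fewer Neurod1 than Isl1 counts, and every top library more. That of Nkx2-2 to Neurod1 ranged from 0.0343 to 0.0415 in bottom and from 0.0599 to 0.108 in top. The ratio of Neurod1 to Pax6 overlapped between the populations, as did every ratio that involved Nkx6-1, Rfx6 or Mlxipl. These ratios were looked at over all pairs and carry no test.

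**Figure D3:**
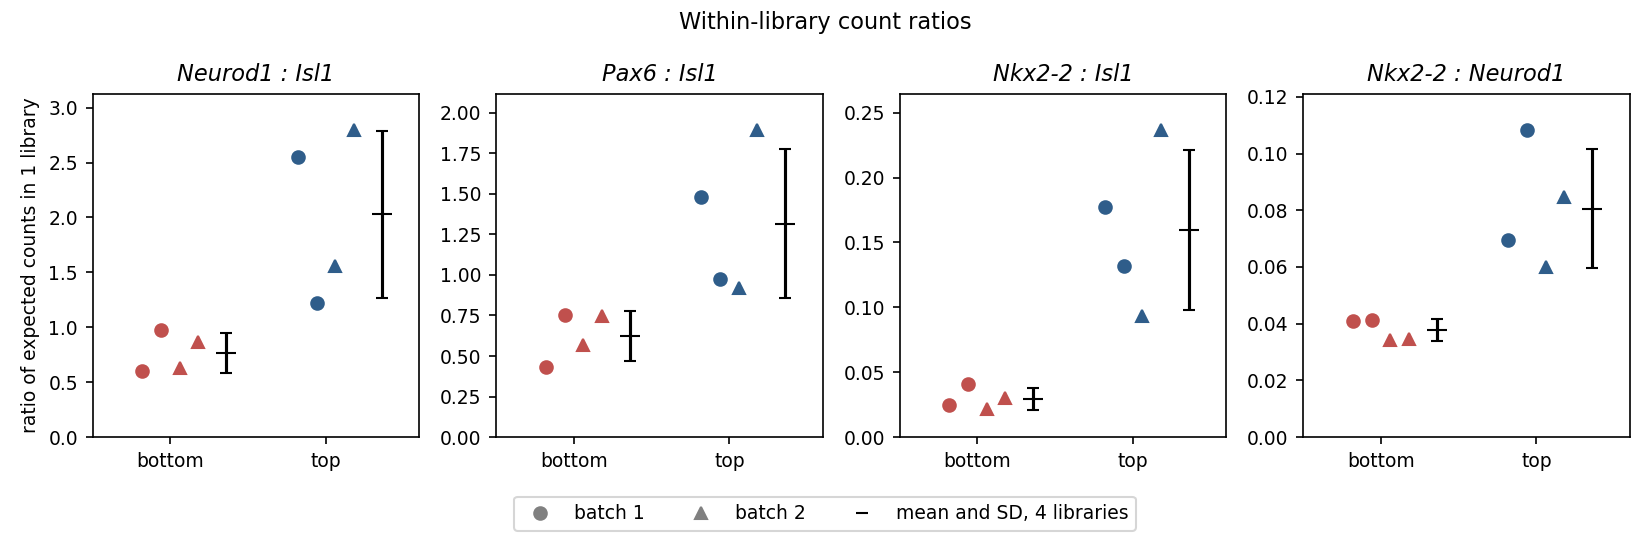
Ratio of the expected counts of a pair of factors within each library, bottom left of top, circles for batch 1 and triangles for batch 2, with bars for the mean and SD of 4 libraries. For Nkx2-2 to Isl1, the 4 bottom libraries lie between 0.0216 and 0.0406 and the 4 top libraries between 0.0932 and 0.236.

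The 10 factors together took 0.117% ± 0.0313 of all counts in bottom and 0.104% ± 0.0154 in top (SD, n = 4 each). Of the counts left after Ins1, Ins2, Iapp, Gcg, Sst, Ppy and Pyy are taken out, they took 0.154% ± 0.0432 in bottom and 0.188% ± 0.0296 in top. The summed level after TMM scaling ran from 769 to 1309 CPM in bottom and from 1016 to 1302 CPM in top.

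The promoters of Isl1 and Nkx2-2 are shown because, among the factors whose libraries did not overlap, they had the highest and the lowest log2 fold change. The windows hold the 250 bases before the RefSeq start in build GRCm38.p6, for Isl1 chr13:116309689-116309938 and for Nkx2-2 chr2:147186403-147186652, both on the minus strand. Capitals mark TAAT, the core read by many homeodomain proteins, or its complement ATTA, and CANNTG. The latter is the general E box, a class of site that Neurod1 is not alone in reading.
Isl1: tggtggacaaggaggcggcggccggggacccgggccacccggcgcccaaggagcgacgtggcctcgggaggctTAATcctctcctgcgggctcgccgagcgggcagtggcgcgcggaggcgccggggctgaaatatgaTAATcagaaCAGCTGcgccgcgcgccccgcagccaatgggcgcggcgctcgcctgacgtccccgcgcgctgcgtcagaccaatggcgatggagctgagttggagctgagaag
Nkx2-2: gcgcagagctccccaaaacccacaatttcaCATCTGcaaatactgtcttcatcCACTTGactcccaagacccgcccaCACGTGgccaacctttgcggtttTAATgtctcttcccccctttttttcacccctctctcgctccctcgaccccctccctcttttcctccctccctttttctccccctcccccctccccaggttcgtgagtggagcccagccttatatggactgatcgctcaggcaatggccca
The Isl1 window held 2 TAAT and 1 CANNTG, and the Nkx2-2 window 1 TAAT and 3 CANNTG. At least 2 TAAT were found in 30.8% and at least 3 CANNTG in 12.2% of 32851 promoter windows, searched on both strands. Of the 10 factors 9 matched the RefSeq table, all but Insm1, with 13 windows in all. TAAT was found in 8 of these, against 54.9% of all windows, and CANNTG in 8, against 66.2%. The forkhead motif TGTTTAC was found in 0 of the 13 and in 3.17% of all windows. Matches are descriptions of sequence and do not show binding.

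Among 36 other transcription factors of the islet and pancreas, 27 were tested, and 1 passed in edgeR, while DESeq2 called 6, of which 4 were higher and 2 lower in bottom, and limma-voom called 0. Hhex, the factor that specifies and maintains delta cells, rose to 220 ± 171 CPM in bottom, against 13.2 ± 5.12 CPM in top (log2 fold change 3.92, SE 0.57, edgeR adjusted p = 0.0275). It was lost in 6 of the 8 omissions, all but those of bottom 1 and bottom 3 (edgeR adjusted p up to 0.132), and its adjusted p was 0.0689 in limma-voom. Of the 27, 18 had a positive log2 fold change and 9 a negative one, with a median of 0.41, against -0.52 for the 10 factors and 0.00 for all tested genes. Next by p came Tcf7l2, the Wnt effector, at 75.2 CPM in bottom and 24.3 CPM in top (adjusted p = 0.155 in edgeR and 0.00490 in DESeq2), and Tshz1, at 58.9 CPM in bottom and 145 CPM in top (adjusted p = 0.213 in edgeR and 0.0259 in DESeq2). Of this list, 4 genes had 0 counts in all libraries, among them Mafa and Pax4.

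Neurog3 and Foxa1, chosen after their values were seen, are close to Neurod1 and Foxa2. Neurog3, which starts the endocrine program and turns on Neurod1, had 7, 204, 81.3 and 210 expected counts in bottom 1 to bottom 4, against 0, 11, 9 and 7 in top 1 to top 4. Bottom 2, bottom 3 and bottom 4 lay above all top libraries, and bottom 1 lay among them (adjusted p = 0.354 in edgeR, 0.0383 in DESeq2 and 0.355 in limma-voom). Foxa1, the close relative of Foxa2, had 238, 0, 0 and 4 expected counts in bottom 1 to bottom 4, against 0, 0, 1 and 0 in top, so its reads came almost wholly from bottom 1.

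**Figure D4:**
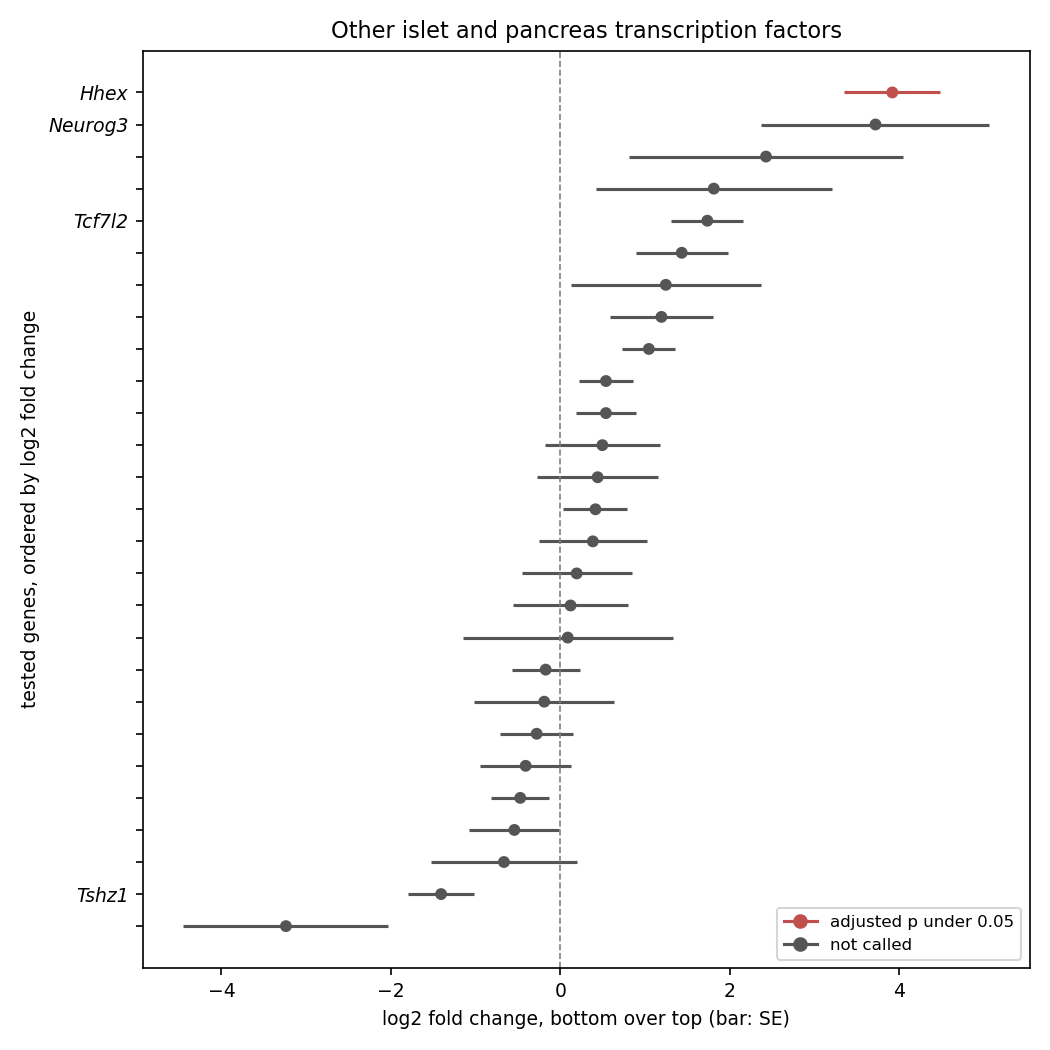
Log2 fold change of bottom over top, with its SE as a bar, for the 27 tested genes of the list of other islet and pancreas transcription factors, 1 gene per row in the order of its value, with the genes named in the text labelled. Hhex, at 3.92, is the gene past the threshold.

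Of the 23 partners and paralogs of the 10 factors, 19 were tested and 0 passed in edgeR, DESeq2 or limma-voom, with 0 at an unadjusted edgeR p under 0.05 and a median log2 fold change of 0.38. Ldb1, the cofactor that Isl1 binds through its LIM domains, had a log2 fold change of 0.72 (SE 0.71), and Mlx, the partner of ChREBP, one of 0.55 (SE 0.46). Those with the smallest p were Smarca4, a chromatin remodeller, at 34.1 CPM in bottom and 54.5 CPM in top, the deacetylase Hdac1, at 17.7 CPM in bottom and 30.1 CPM in top, and Meis1, a homeodomain partner of Pbx proteins, at 27.4 CPM in bottom and 16.5 CPM in top (edgeR adjusted p from 0.568 to 0.704).

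Genes that these factors are known to activate in beta cells were lower in bottom where they passed in edgeR. Of 19 tested targets 5 fell, 0 rose and 14 did not pass, and the median log2 fold change was -1.64. DESeq2 called 11 lower and 1 higher, the pentraxin gene Nptx2, and limma-voom called 8 lower and 0 higher. The edgeR count was 3 to 7 with 1 library left out, and 3 without bottom 3, top 1, top 2 or top 4. Ins2 fell to 39454 CPM in bottom, against 318155 CPM in top (log2 fold change -2.99, SE 0.30), and Ins1 to 8719 CPM in bottom, against 60270 CPM in top (-2.76, SE 0.27). G6pc2, the islet glucose-6-phosphatase subunit, fell to 478 CPM in bottom, against 2551 CPM in top (-2.41, SE 0.25). The edgeR adjusted p was 0.00498 for these 3 and stayed under 0.05 in all 8 omissions. The endoplasmic reticulum oxidase Ero1lb fell to 291 CPM in bottom, against 1836 CPM in top, and the pyruvate carboxylase Pcx to 0.786 CPM in bottom, against 39.6 CPM in top. Their edgeR adjusted p was 0.0305 for Ero1lb, which was lost in 5 omissions, and 0.0424 for Pcx, which was lost in 7 (edgeR adjusted p up to 0.121 and 0.149). Abcc8 and Kcnj11, the channel subunits that couple glucose to secretion, had log2 fold changes of 0.11 (SE 0.24) and 0.22 (SE 0.46).

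Of the 16 carbohydrate response targets of ChREBP, all tested, 0 passed in edgeR (3 at an unadjusted p under 0.05), DESeq2 called 1 and limma-voom 1, and the median log2 fold change was -0.25. Acly, the enzyme that makes acetyl-CoA for lipid synthesis, stood at 451 ± 125 CPM in bottom and 1008 ± 53.3 CPM in top (log2 fold change -1.16, SE 0.25, edgeR adjusted p = 0.102). The fatty acid elongase Elovl6 stood at 24.3 CPM in bottom and 58.9 CPM in top, and the fatty acid synthase Fasn at 10.1 CPM in bottom and 27.2 CPM in top (edgeR adjusted p = 0.439 and 0.462). For Txnip, which ChREBP raises with glucose, bottom over top gave 0.65 on the log2 scale (SE 0.32, edgeR adjusted p = 0.543).

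The promoters of Ins1 and Sst are shown because Ins1 fell and Sst rose in bottom, while both are classical targets of Pdx1, and Ins1 also of Neurod1. The RefSeq windows are chr19:52264047-52264296 on the plus strand for Ins1 and chr16:23890845-23891094 on the minus strand for Sst, in GRCm38.p6, with capitals for the same motifs. They follow the annotated starts, which were not checked against where transcription begins, so the windows may not cover like stretches of the promoters.
Ins1: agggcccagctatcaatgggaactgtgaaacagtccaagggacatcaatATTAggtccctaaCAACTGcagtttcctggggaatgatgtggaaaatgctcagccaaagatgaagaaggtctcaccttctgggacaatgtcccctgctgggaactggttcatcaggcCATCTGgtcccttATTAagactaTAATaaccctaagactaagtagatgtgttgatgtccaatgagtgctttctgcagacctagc
Sst: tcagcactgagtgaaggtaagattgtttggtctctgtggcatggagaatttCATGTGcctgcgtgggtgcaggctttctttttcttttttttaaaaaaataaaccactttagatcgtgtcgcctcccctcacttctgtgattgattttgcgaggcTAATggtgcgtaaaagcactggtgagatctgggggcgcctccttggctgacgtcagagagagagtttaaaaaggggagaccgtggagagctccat
The Ins1 window held 3 matches to TAAT and 2 to CANNTG, and the Sst window 1 of each. At least 3 TAAT were found in 17.3% of all promoter windows and at least 2 CANNTG in 31.8%, and at least 1 TAAT in 54.9% and at least 1 CANNTG in 66.2%.

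Markers of other islet cells differed between the populations. Delta cell markers (9 of 9 genes read) summed to 33657 to 58001 CPM in bottom and to 2714 to 5355 CPM in top, and 4 of 7 tested rose, Sst, Rbp4, Hhex and Ptprz1, with Sst at 42609 CPM in bottom and 3187 CPM in top. Sst passed in all 8 omissions, Rbp4 in all but that of top 2 (edgeR adjusted p = 0.0505), and Hhex and Ptprz1 in 2 each, so that the count was 1 to 3 with 1 library left out, and 1 without top 2. PP and epsilon cell markers (5 of 5 read) summed to 11373 to 91995 CPM in bottom and to 1197 to 2357 CPM in top, and 2 of 3 tested rose, Ppy and Pyy. Without bottom 4, top 1 or top 2 this count was 0 (edgeR adjusted p up to 0.118 for Ppy and 0.113 for Pyy), and Pyy was lost without top 4 as well. Alpha cell markers (13 of 13 read) overlapped, at 29931 to 143407 CPM in bottom and 66837 to 139937 CPM in top, and 0 of 12 tested passed in edgeR (3 at an unadjusted p under 0.05), DESeq2 or limma-voom. The exact permutation p of the difference in their share of counts was 0.0286 for the delta list and for the PP and epsilon list, the smallest that 70 relabellings can give, or 0.0629 adjusted over 11 lists, and 0.571 for the alpha list. These relabellings leave out the batch. Within batches, where 36 relabellings allow no p under 0.0556, the delta list and the PP and epsilon list reached 0.0556 (0.0873 adjusted) and the alpha list 0.667. The share of the delta list was 5.10 percentage points higher in bottom than in top in batch 1 and 3.94 in batch 2, and that of the PP and epsilon list was 7.95 higher in batch 1 and 1.94 in batch 2. Between the populations, the delta list and the PP and epsilon list were higher in bottom, as was Isl1, while Nkx2-2 and Foxa2 were lower. The order of libraries within bottom depended on the measure. Bottom 2 had the highest CPM sums of both lists and also the highest Nkx2-2, at 14.3 CPM. Bottom 3 had the highest Isl1, at 378 CPM, and the lowest PP and epsilon sum, at 11373 CPM. Of the counts without the hormone genes, the delta list took 0.239%, 0.335%, 0.389% and 0.253% in bottom 1 to bottom 4. By this share bottom 3 was the highest bottom library, as for Isl1. In top the share was 0.0393%, 0.0406%, 0.0462% and 0.0655% in top 1 to top 4. It was thus highest in top 4, while Isl1 was highest in top 2, at 241 CPM. The part of these lists in the differences of the factors was not tested.

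Markers of cells other than alpha, delta, PP and epsilon cells were uneven within bottom. Intestinal epithelial markers (13 of 13 read) summed to 32131, 7520, 44.5 and 21.5 CPM in bottom 1 to bottom 4, against 2036, 168, 63.7 and 736 CPM in top 1 to top 4. Bottom 1 was the lowest bottom library for 5 of the 10 factors, Nkx6-1, Nkx2-2, Neurod1, Pax6 and Rfx6. Bottom 2 was the lowest for 2, bottom 3 for 2 and bottom 4 for 1. For Pdx1, at 5.35 CPM, and Mlxipl, at 93.8 CPM, bottom 1 was the highest bottom library. Fibroblast and stellate markers (10 of 10 read) summed to 3.39, 235, 318 and 1344 CPM in bottom, against 0.251 to 16.2 CPM in top, and 2 of 4 tested rose in edgeR, Dcn and Col3a1. Dcn was lost in 7 of the 8 omissions, all but that of bottom 1 (edgeR adjusted p up to 0.141), Col3a1 in 6, all but those of bottom 1 and bottom 3 (up to 0.215), and limma-voom called 0 of the 4. The other lists gave summed levels in bottom and in top as follows. Enteroendocrine markers gave 1745 to 3016 CPM in bottom and 756 to 1110 CPM in top, with 1 of 4 tested called, Chgb, a granule protein that islet endocrine cells also make. Chgb gave 79.8% to 99.3% of that sum in bottom and 99.1% to 99.8% in top, and it kept its call in 1 of the 8 omissions, that of top 3, with an edgeR adjusted p as high as 0.184 in the rest. The list without Chgb summed to 608, 23.7, 14.6 and 23.0 CPM in bottom 1 to bottom 4, against 2.16, 9.17, 4.95 and 2.38 CPM in top 1 to top 4, and Gip and Nts were at 0 in all libraries. Acinar markers gave 119 to 1308 CPM in bottom and 20.5 to 215 CPM in top, with 0 of 8 tested called in edgeR (3 at an unadjusted p under 0.05) and 2 in DESeq2. Duct markers gave 458 to 1159 CPM in bottom and 283 to 582 CPM in top, and endothelial markers 8.41 to 303 CPM in bottom and 0.124 to 8.26 CPM in top. Pan-leukocyte markers gave 10.0 to 30.6 CPM in bottom and 5.08 to 10.9 CPM in top, and neuronal and Schwann markers 23.8 to 30.7 CPM in bottom and 29.9 to 69.9 CPM in top. The exact permutation p, again of the share of all counts including insulin, was 0.0286 for the enteroendocrine, endothelial and pan-leukocyte lists (0.0629 adjusted). It was 0.0571 for the acinar, duct and fibroblast lists (0.0786 adjusted), 0.143 for the neuronal list and 0.400 for the intestinal list. Within batches it was 0.0556 for the enteroendocrine, duct, fibroblast, endothelial and pan-leukocyte lists, 0.111 for the acinar list, 0.167 for the neuronal list and 0.278 for the intestinal list. The pan-leukocyte sums in CPM overlapped between bottom and top. Of the counts without the hormone genes, the pan-leukocyte and endothelial shares overlapped, and the enteroendocrine shares did not. The part of these markers in the factors' values was not tested. The edgeR fit without bottom 1 left the log2 fold change of Isl1 at 0.82, of Nkx2-2 at -1.49 and of Foxa2 at -0.83.

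**Figure D5:**
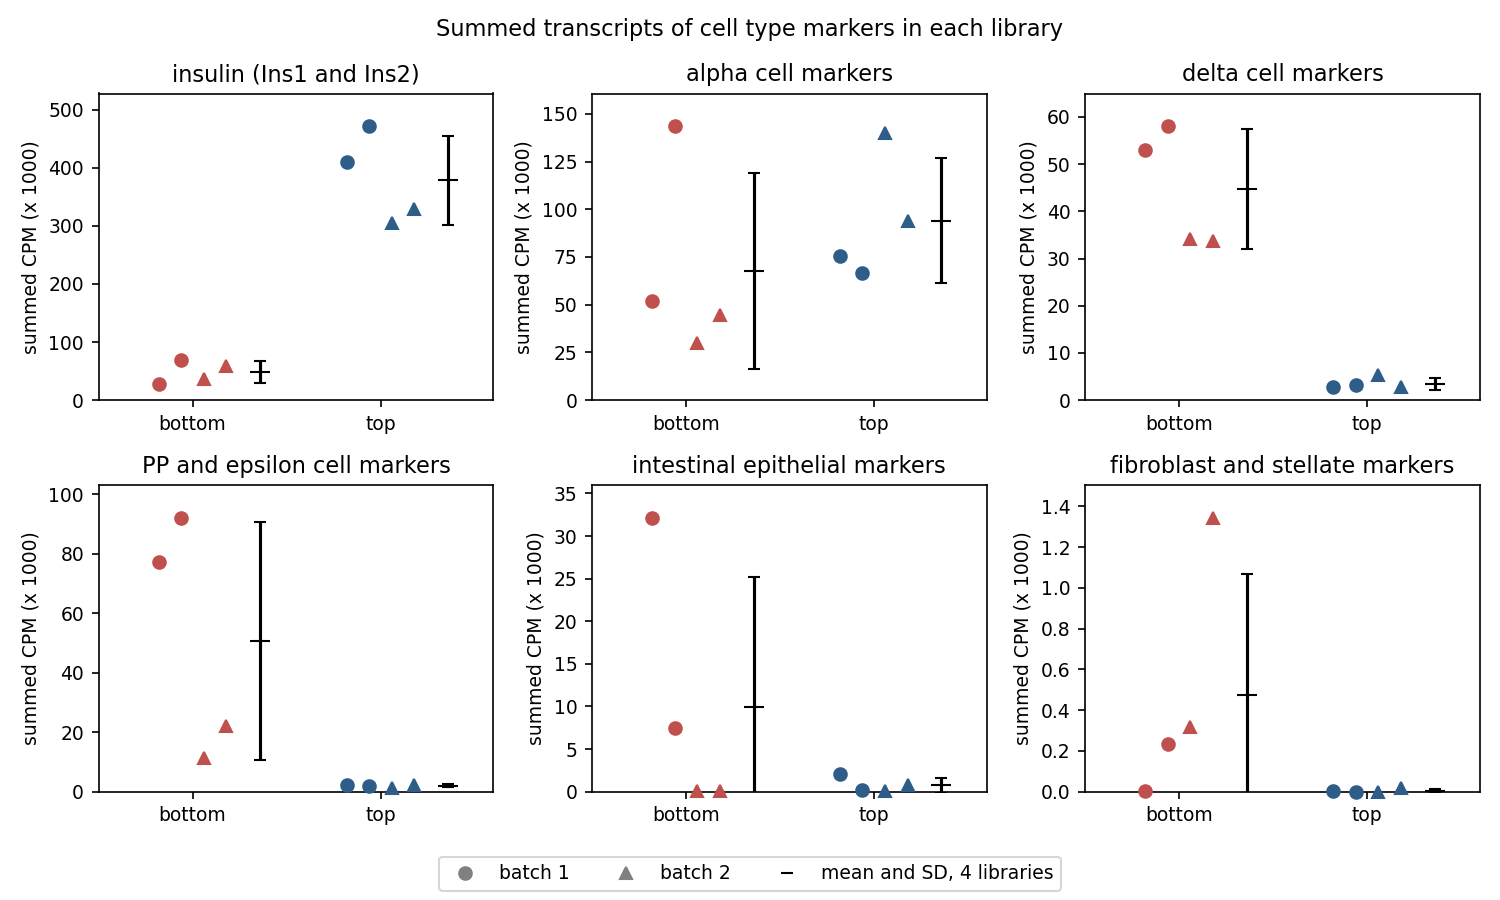
Summed TMM-scaled CPM, in units of 1000, of insulin and of 5 marker lists in each library, bottom left of top, circles for batch 1 and triangles for batch 2, with bars for the mean and SD of 4 libraries, cut off at 0. Delta markers lie between 33657 and 58001 CPM in bottom and between 2714 and 5355 CPM in top, while alpha markers overlap.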

How the data were processed

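Values were the expected counts that the authors deposited, which RSEM estimates per gene by dividing reads shared between genes. The submitters' processing notes list RSEM, edgeR and build mm9. The aligner, annotation and versions are not given in the sources used here. Cells were sorted, and cDNA amplified with the SMARTer Ultra Low kit before Nextera XT tagmentation, per the labels' protocols. The series table and the 8 library tables were identical (largest difference 0 over 23366 genes). Of the deposited expected counts 34.8% were not whole (tolerance 1e-09), and all were rounded for testing.

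Genes passing filterByExpr (11721, holding at least 98.0% of each library's counts) were tested with edgeR 4.0.16 in R 4.3.3: TMM scaling, quasi-likelihood test of bottom against top, batch as covariate, Benjamini-Hochberg adjustment over all tested genes, called under 0.05. SEs were taken as the log2 fold change over the root of the F statistic, and 95% intervals use its t distribution. CPM used TMM-scaled sizes of the tested genes. DESeq2 1.42.0, limma-voom (limma 3.58.1) and other settings were alternatives. The fit was also run on simulated counts, drawn with a single spread for all genes that lay below the common value of the data. Only genes above a set mean level were changed there, so that run does not bear on factors with low counts. Shares of counts were compared by two-sided exact permutation over 70 relabellings, and within batches over 36. Transcript length and GC came from GENCODE M21 and promoters from RefSeq, both on GRCm38, another build than mm9, and only for sequence and names.

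All 10 factors were named. Of the lists of other factors, partners and targets, called genes were named and, where fewer than 3, those with the smallest p up to 3. Of the marker lists, called genes were named, beside Gcg, Gip and Nts. Neurog3, Foxa1, Ldb1, Mlx, Abcc8, Kcnj11, Txnip and Nptx2 were added after their values were seen. Some genes of the lists are not reported here by name. Members and lists were chosen with earlier results of these data known.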

Additional observations from a re-analysis of the deposited data

How the results depend on the processing

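Under 18 other settings no factor of the 10 was called, with the lowest adjusted p at 0.0592, for Nkx2-2 in DESeq2, and 174 of 180 log2 fold changes kept their direction. The 6 that turned were Pdx1 without top 4 (0.35), Rfx6 without bottom 2 (-0.38), Insm1 in batch 2 alone (0.26), and, with the replicate block, Pdx1 (0.73), Rfx6 (-1.03) and Mlxipl (0.37). With 1 library left out, Pdx1 ranged from -0.61 to 0.35 and Rfx6 from -0.38 to 0.65. The cause was not tested. The 52 genes called over the whole table became 204 without the filter on low counts, 587 with DESeq2, 32 without the batch term, 2 in batch 1 alone, 2 in batch 2 alone, and 8 to 60 with 1 library left out. With the replicate block, made of the batch and the number in the library title, 0 genes were called in edgeR, with 710 at an unadjusted p under 0.05. Only libraries numbered 1 share a block across populations, and their deviations from the group means correlated at 0.217 in batch 1 and 0.124 in batch 2 over genes, on log2(CPM + 1), and with these 2 pairs the libraries share only a number. The summed share of the factors was 0.0132 percentage points higher in bottom than in top, and its difference was -0.0338 once hormone genes are taken out, and 0.00179 to 0.0270 with 1 library left out. Counts were fewest for Pdx1 and Nkx6-1, with totals of 159 and 77 in bottom and 138 and 218 in top. The shares of the marker lists were also relabelled within batches, an alternative chosen after seeing the data, where 36 relabellings allow no p under 0.0556.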
